A study of Mus musculus with 6 samples.

Results

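The 29 genes described here make cholesterol, sense its level or move it out of reach: 8 enzymes of the mevalonate pathway, 11 enzymes of the branch that leads on to sterols, 5 sterol-sensing regulators, 2 genes of cholesterol transfer and 3 targets of the liver X receptors (LXR). They were taken by gene symbol from a deposited table of 55573 mouse genes, and all 29 passed the filter on low counts, which kept 16493 genes. The rule names genes by symbol and uses no measured value, but the 29 genes were chosen with earlier results of these data known.

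Cells make cholesterol from acetyl-CoA through mevalonate, the isoprenoids and squalene. When membrane sterol is low, the escort protein SCAP carries the SREBP factors (encoded by Srebf1 and Srebf2) from the endoplasmic reticulum to the Golgi, where they are cut and released to switch on the synthesis enzymes. When sterol is high, the INSIG proteins hold SCAP back, and oxysterols activate LXR, which switches on the export pumps ABCA1 and ABCG1. Blood cells rely on this balance because cholesterol export restrains the growth of progenitors, and platelets carry cholesterol-rich membrane domains.

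RNA was sequenced from 6 mouse samples labelled megakaryocytes, 3 wild-type (WT) and 3 labelled Abcc4-/-. Abcc4 encodes a transporter that exports cyclic nucleotides and other organic anions. No treatment is labelled, the titles contain BM and CD41, and the sources used here state neither the kind of Abcc4 allele nor the animals' age. The design text gives mice with N = 3 per group, but no label ties a library to an animal or says whether animals were pooled. The p-values therefore measure the spread between these libraries, which may in part be technical. Levels are in CPM, counts scaled to the size of each library with TMM factors, and the genotypes were compared with the edgeR quasi-likelihood test over all 16493 genes. A gene was called where the Benjamini-Hochberg adjusted p lay below 0.05, and fold changes are Abcc4-/- against WT.

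Libraries held 50440239 to 55123512 counts in WT and 67009925 to 99294493 in Abcc4-/-. Each of the 29 genes had at least 392 counts in each library. Abcc4 itself fell from 73.9 ± 1.96 to 61.0 ± 1.13 CPM (SD, n = 3 each; adjusted p = 0.0026), a value for the whole gene that cannot check the deleted part. The 12 megakaryocyte markers took 0.0288% to 0.0350% of the counts in WT and 0.0197% to 0.0238% in Abcc4-/-, and the 12 neutrophil markers 2.20% to 2.85% and 3.82% to 4.02%. The other marker lists took 0.293% to 0.327% and 0.273% to 0.302% (15 monocyte and macrophage genes), 0.0473% to 0.0677% and 0.0873% to 0.0962% (8 B cell genes), and 0.00249% to 0.00335% and 0.00475% to 0.00635% (8 T and NK cell genes). Erythroid markers (9 genes) took 0.0710% to 0.0766% and 0.0545% to 0.0802%, and 8 proliferation genes 0.227% to 0.253% and 0.223% to 0.235%. No marker was at 0 in all libraries. Of the 12 megakaryocyte markers 1 rose and 9 fell (8.33% and 75%), against 8.61% higher and 8.68% lower among all genes tested. Itga2b, the gene of CD41, fell (158 ± 17.3 to 96.1 ± 13.8 CPM). Of the 12 neutrophil markers 9 rose and 1 fell (75% and 8.33%), and S100a8 rose (4646 ± 725 to 8421 ± 355 CPM). Among the 8 B cell genes 5 rose and 0 fell, and among the 8 T and NK cell genes 7 rose and 0 fell. Of the 14 monocyte and macrophage genes tested, 0 rose and 4 fell. Of the erythroid genes 2 rose and 0 fell, and of the proliferation genes 0 were called. In such bulk samples, fewer cells of a type and less RNA per cell cannot be told apart, and the part of these shifts in the results below was not tested.

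Of the 19 enzymes of cholesterol synthesis, 5 rose in Abcc4-/- by small amounts and 0 fell, while the regulators Srebf1, Srebf2 and Scap were not called and the export pumps Abca1 and Abcg1 were not called either. Of the 29 genes, 7 rose and 0 fell (24.1% higher), against a background of 8.61% higher and 8.68% lower, or 17.3% called in either direction, among all genes tested. The genes that rose were Acat2, Hmgcs1, Ggps1, Msmo1, Hsd17b7, Insig2 and Mylip. At an unadjusted p below 0.05 the count was 14 of 29, where 30.9% of all genes passed. DESeq2 called 9 higher and 1 lower, against 8.72% higher and 9.02% lower of all genes. The median log2 fold change of the 29 was 0.10, beside 0.00 over all genes. The 3 WT and 3 Abcc4-/- values did not overlap for 14 of the 29 genes (48.3%), 12 with Abcc4-/- above and 2 below, against 36.8% of all genes. On the deposited TPM, which is scaled by transcript length, the calls were fewer: limma on log2(TPM + 1) called 1 higher (Msmo1) and 1 lower (Insig1), against 3.63% higher and 9.17% lower of all genes. With each library centred on its median it called 5 higher and 1 lower, against 6.88% and 5.19%. Over all genes, higher calls were 49.8% of calls in the count test, 28.4% on log2(TPM + 1) and 57.0% after centring.

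**Figure D1:**
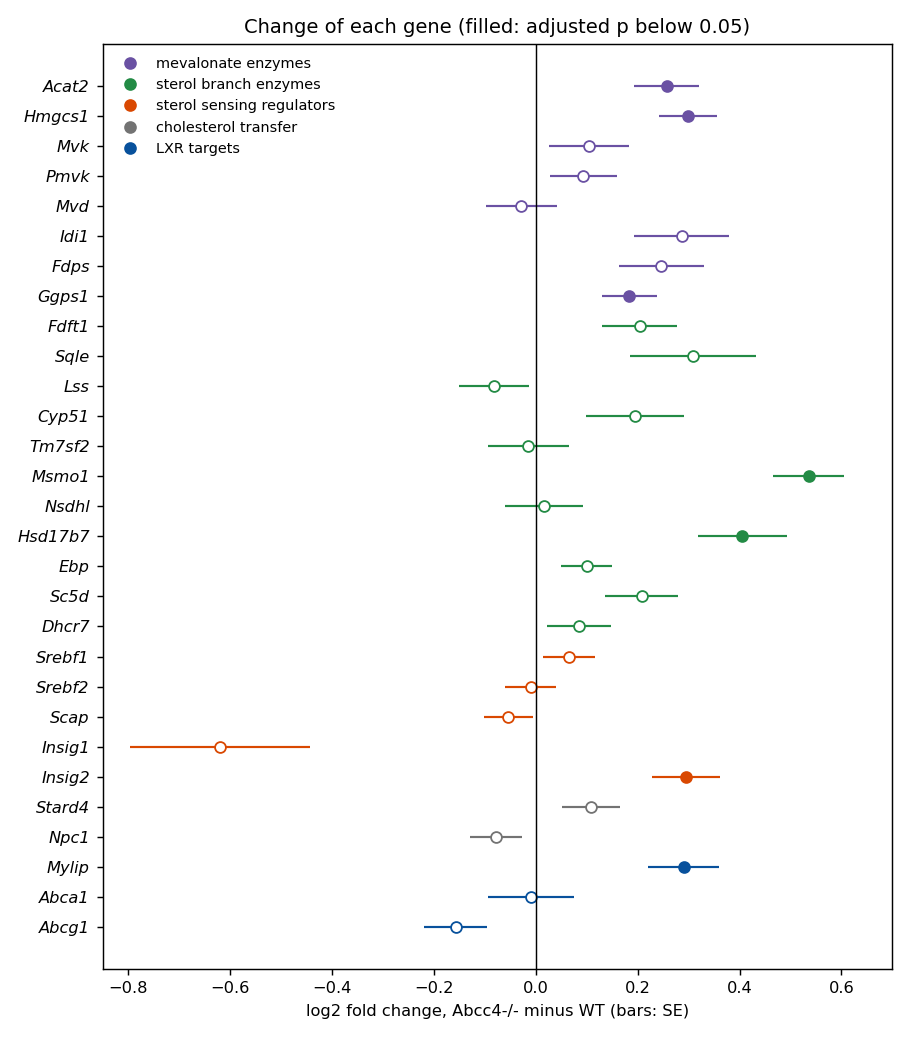
Log2 fold change (Abcc4-/- minus WT) of the 29 genes from the edgeR fit, with bars for the SE; filled points have an adjusted p below 0.05 and colours give the role. The 7 filled points all lie to the right of 0, and Insig1, open, lies farthest to the left at -0.62.

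Among the 8 mevalonate pathway enzymes, 3 rose and 0 fell, and the median log2 fold change was 0.22. Hmgcs1 (ENSMUSG00000093930.2, chromosome 13, 119690379 to 119708260, plus strand of GRCm38), the cytosolic HMG-CoA synthase, stood at 40.8, 42.4 and 43.4 CPM in the WT libraries and at 55.5, 49.9 and 50.4 CPM in Abcc4-/-. The groups did not overlap, and Abcc4-/- replicate 1 was the highest. The change was 1.23-fold (log2 fold change 0.30, SE 0.06, adjusted p = 0.00456). It kept its call without any 1 library and in each other count test, and lost it on both uncentred TPM scales (adjusted p = 0.0632 to 0.0652).

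Acat2 (ENSMUSG00000023832.14, chromosome 17, 12942890 to 12960747, minus strand), the cytosolic thiolase that joins acetyl-CoA units, stood at 15.0, 14.8 and 15.4 CPM in WT and at 19.1, 16.9 and 18.0 CPM in Abcc4-/-. All 3 Abcc4-/- values lay above the WT values, a 1.195-fold rise (SE 0.06 on the log2 scale, adjusted p = 0.0177). The call was lost without WT replicate 1 or 2 or Abcc4-/- replicate 1 (adjusted p = 0.050 to 0.0672) and on both uncentred TPM scales (0.153 to 0.156). Its neighbour Acat3, 97.7% identical over 1477 bases of transcript, was assigned 0.25% as many counts.

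Ggps1 (ENSMUSG00000021302.10, chromosome 13, 14050659 to 14063488, minus strand) makes geranylgeranyl diphosphate, which feeds protein prenylation in place of sterols. It stood at 24.5, 23.3 and 25.1 CPM in WT and at 27.3, 27.5 and 28.04 CPM in Abcc4-/-, again without overlap. The 1.14-fold rise (adjusted p = 0.0362) rested on the scale and on most libraries. Its TPM was level, 17.0 ± 0.146 in WT and 17.0 ± 0.304 in Abcc4-/- (SD, n = 3), and leaving out any of the other 5 libraries than WT replicate 3 ended the call (adjusted p = 0.0663 to 0.118).

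The remaining mevalonate enzymes were not called. Idi1, the isomerase of the isoprenoid unit, stood at 28.4, 29.98 and 29.8 CPM in WT and at 42.0, 32.3 and 33.4 CPM in Abcc4-/- (log2 fold change 0.29, adjusted p = 0.0664). Fdps, which makes farnesyl diphosphate, stood at 50.5, 50.9 and 43.5 CPM and at 64.1, 54.1 and 53.7 CPM (0.25, adjusted p = 0.0734). The groups of these 2 genes did not overlap, and Abcc4-/- replicate 1 was well above the other 5 libraries in each. DESeq2 called both higher (adjusted p = 0.0222 and 0.0326, against 0.0119 to 0.303 and 0.0105 to 0.206 over all alternatives). Reads of Idi1 and Fdps are less certain, since Gm13502 matches Idi1 fully over 684 bases and was assigned 2.91% as many counts, and Gm43738 overlaps Fdps on its own strand. The kinases Mvk and Pmvk and the decarboxylase Mvd had log2 fold changes of 0.10, 0.09 and -0.03 (adjusted p = 0.401, 0.364 and 0.829), with overlapping groups.

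Of the 11 enzymes of the sterol branch, 2 rose and 0 fell, and their median log2 fold change was 0.19. Msmo1 (ENSMUSG00000031604.10, chromosome 8, 64718139 to 64733792, minus strand), the methyl sterol oxidase that starts the removal of methyl groups from the early sterols, showed the largest rise of the 29 genes. It stood at 22.5, 22.2 and 23.3 CPM in WT and at 36.4, 30.8 and 31.4 CPM in Abcc4-/-. The lowest Abcc4-/- library was thus well above the highest WT library. The rise was 1.45-fold (log2 fold change 0.54, SE 0.07, adjusted p = 0.000465), and in TPM Msmo1 went from 18.0 ± 1.26 to 24.9 ± 1.84. Msmo1 was the only gene of the 29 called in each of the 18 alternatives (adjusted p = 2.4e-11 to 0.00949).

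Hsd17b7 (ENSMUSG00000026675.12, chromosome 1, 169949535 to 169969241, minus strand) encodes the reductase that completes that demethylation step. It stood at 7.17, 8.59 and 8.29 CPM in WT and at 11.3, 10.1 and 10.5 CPM in Abcc4-/-, again without overlap. The rise was 1.32-fold (log2 fold change 0.41, SE 0.09, adjusted p = 0.00903), and the call was lost only on the uncentred TPM scales (adjusted p = 0.0978 to 0.108). Nsdhl, which acts between Msmo1 and Hsd17b7 in the same step, did not follow: it stood at 16.2, 14.7 and 15.0 CPM in WT and at 17.2, 14.9 and 14.5 CPM in Abcc4-/- (log2 fold change 0.02, adjusted p = 0.914).

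The other 9 enzymes of this branch were not called, and the groups did not overlap for Fdft1, Ebp and Sc5d (Abcc4-/- above) and for Lss (below). Sqle, the squalene epoxidase, stood at 15.4, 15.6 and 17.4 CPM in WT and at 24.1, 17.2 and 18.8 CPM in Abcc4-/- (log2 fold change 0.31, SE 0.12, adjusted p = 0.136). Its log2 fold change was as large as that of Hmgcs1, but Abcc4-/- replicate 2 lay below WT replicate 3. Fdft1, which makes squalene, and Sc5d, a late desaturase, had log2 fold changes of 0.20 and 0.21 (adjusted p = 0.0802 and 0.0714). Cyp51, the lanosterol demethylase, had 0.19 (adjusted p = 0.202), and the isomerase Ebp and the last reductase Dhcr7 had 0.10 and 0.09 (0.198 and 0.399). Lss, which closes the sterol rings, had -0.08 and the reductase Tm7sf2 -0.01 (adjusted p = 0.467 and 0.930). Tm7sf2 overlaps Vps51 on its own strand, and Fdft1 has a copy, Gm6781, with 2.47% as many counts.

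Abcc4-/- replicate 1 carried the highest level of 15 of the 19 synthesis enzymes. The mean log2 CPM over the 19 was 4.23, 4.24 and 4.25 in the WT libraries and 4.52, 4.36 and 4.38 in Abcc4-/-. The WT libraries thus differed by far less among themselves than the Abcc4-/- libraries did, and all 3 Abcc4-/- means lay above WT. Without that library the enzymes' median log2 fold change went from 0.19 to 0.13. The number of enzymes above 0 was 16 of 19 with and without it, with Nsdhl crossing to below 0 and Tm7sf2 to above, and 5 of the 7 called genes remained called. Of all genes tested, 8284 of 16493 lay above 0 with all libraries. On log2(TPM + 1), 12 of the 19 enzymes lay above 0. Their median log2 fold change there was 0.03, beside -0.06 over all genes. The counts called higher were 4 to 8 of 29 when each library was left out in turn, with 4 without WT replicate 1 or WT replicate 2. Over all genes, 1420 of 16493 were called higher with all libraries and 924 of 16593 without Abcc4-/- replicate 1. The number was 1117 of 16945 without WT replicate 1, 1117 of 16907 without WT replicate 2 and 1247 of 16907 without WT replicate 3.

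**Figure D2:**
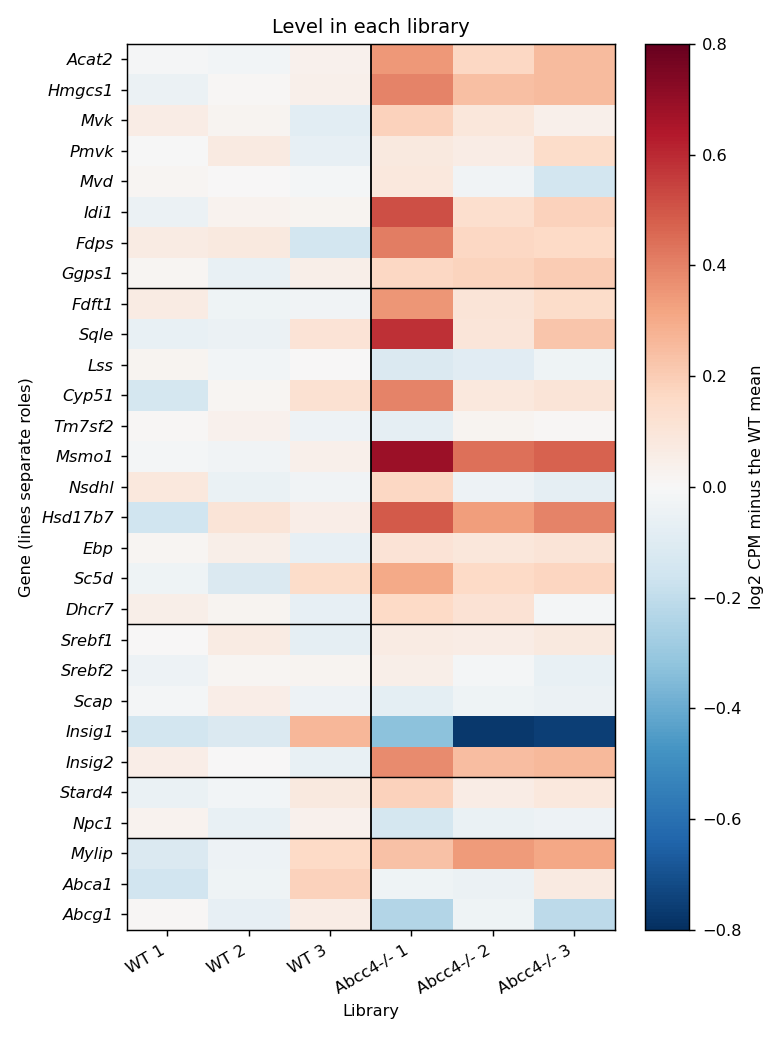
Log2 CPM of the 29 genes in each of the 6 libraries, minus the mean of the 3 WT libraries (red above, blue below); horizontal lines separate the roles and the vertical line the genotypes. Abcc4-/- replicate 1 holds the highest level of 15 of 19 enzymes, and Insig1 is the bluest row in Abcc4-/- replicates 2 and 3.

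Because the enzyme genes are textbook SREBP targets, the DNA before their start sites was read for the motifs these factors and their partners bind. RefSeq promoters (GRCm38.p6, 250 bases before to 50 after each start) matched 23 of the 29 genes. Both strands were searched, and a gene counts where any of its listed starts held the motif. The sterol regulatory element was searched as TCACNCCAC and was in 1 of the 23 genes, Hmgcs1, against 1.44% of all 27025 genes in that table. The E-box CACGTG, which SREBP also binds, was in 6 (26.1%, against 8.09%): Hsd17b7, Sc5d, Dhcr7, Scap, Insig1 and Abca1. CCAAT, the letters of the partner NF-Y, was in 20 (87.0%, against 41.1%), and the GC box GGGCGG of Sp1 in 21 (91.3%, against 38.2%). The shares of all genes include genes that the filter on low counts left out, whereas all 29 passed it. Shares among expressed genes alone were not computed. The cAMP element TGACGTCA was in 0 of the 23 (2.03% of all genes), and AGGTCA repeated after 4 bases, a strict form of the LXR element, was in 0 (0.0148% of all genes). CCAAT was in genes that rose, such as Msmo1, and in genes that were not called, such as Lss, Tm7sf2 and Nsdhl. A match is a description of letters, and no match says only that they are not in this window.

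Stretches are shown before the RefSeq starts of 3 enzymes that rose, of Insig1 and of Mylip, the LXR target that rose. Insig1 had the most negative fold change but was not called. Motif letters are in capitals, whichever strand they lie on (sterol regulatory element, E-box, CCAAT box and GC box). The stretches are read 5′ to 3′ on the gene's strand, and distances count from the RefSeq start, which can differ from the end of the GENCODE gene. Bases that annotated exons cover were left out, save for the 30 bases of Msmo1. Those 30 bases lie inside the Msmo1 gene as GENCODE gives it (64718139 to 64733792). The stretches lie at chr13:119690121-119690320 (Hmgcs1, plus), chr8:64733627-64733656 (Msmo1, minus), chr1:169969242-169969408 (Hsd17b7, minus), chr5:28071182-28071362 (Insig1, plus) and chr13:45389512-45389711 (Mylip, plus).
Hmgcs1: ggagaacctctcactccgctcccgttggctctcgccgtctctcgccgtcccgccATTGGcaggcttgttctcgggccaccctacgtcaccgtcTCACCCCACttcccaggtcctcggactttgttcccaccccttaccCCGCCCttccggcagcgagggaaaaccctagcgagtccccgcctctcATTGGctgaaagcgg
Msmo1: aggcaGGGCGGgagtgGGGCGGaCCAATta
Hsd17b7: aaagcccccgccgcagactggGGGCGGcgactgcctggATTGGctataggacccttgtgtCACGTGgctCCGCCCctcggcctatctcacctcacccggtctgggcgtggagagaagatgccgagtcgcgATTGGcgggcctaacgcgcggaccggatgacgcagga
Insig1: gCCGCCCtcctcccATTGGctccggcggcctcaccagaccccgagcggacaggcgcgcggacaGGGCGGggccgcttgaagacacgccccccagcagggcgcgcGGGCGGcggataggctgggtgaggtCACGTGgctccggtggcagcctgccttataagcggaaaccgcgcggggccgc
Mylip: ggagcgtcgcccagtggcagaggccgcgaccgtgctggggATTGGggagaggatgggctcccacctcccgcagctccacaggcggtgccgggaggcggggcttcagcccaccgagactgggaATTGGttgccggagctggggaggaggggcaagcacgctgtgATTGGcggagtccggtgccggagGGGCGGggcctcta
In Hmgcs1 the sterol regulatory element begins 137 bases before the start, with CCAAT boxes in reverse on either side of it. The 30 bases of Msmo1 hold a pair of GC boxes and a CCAAT box, in a window set by hand. In Hsd17b7 and Insig1 the E-box begins 143 and 101 bases before the start; Hsd17b7 was called higher and Insig1 was not called.

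Of the 5 sterol-sensing regulators, 1 rose and 0 fell. The factor genes stood level in CPM. Srebf2, whose product drives the synthesis enzymes, had 186, 194 and 195 CPM in WT and 198, 190 and 184 CPM in Abcc4-/- (log2 fold change -0.01, SE 0.05, adjusted p = 0.923). Srebf1, whose product leans toward fatty acid genes, had 78.9, 82.5 and 74.9 CPM and 82.2, 81.9 and 83.1 CPM (0.07, SE 0.05, adjusted p = 0.420). Scap had 80.7, 84.5 and 79.3 CPM and 77.2, 79.5 and 78.9 CPM (-0.05, SE 0.05, adjusted p = 0.495). The groups overlapped in CPM for each of these 3 genes. In TPM Srebf2 stood at 61.33, 63.88 and 67.49 in WT and at 59.67, 58.05 and 57.58 in Abcc4-/-. Scap stood at 38.04, 40.64 and 37.14 TPM in WT and at 33.1, 36.31 and 36.37 TPM in Abcc4-/-. Both were thus lower without overlap on that scale, while Srebf1 overlapped, and none of the 3 was called there. The share of all genes without overlap in TPM was not computed. Cutting and movement of the SREBP proteins were not measured.

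Of the pair of INSIG genes, Insig2 rose in counts and Insig1 was not called. Insig1 (ENSMUSG00000045294.11, chromosome 5, 28071363 to 28078662, plus strand), itself a target of SREBP, stood at 49.98, 50.97 and 66.5 CPM in WT and at 44.1, 32.3 and 32.8 CPM in Abcc4-/-. All 3 Abcc4-/- values lay below WT, with WT replicate 3 and Abcc4-/- replicate 1 the highest of their groups. The difference was 1.54-fold (log2 fold change -0.62, SE 0.18) and did not pass (adjusted p = 0.0734). It passed with DESeq2 (adjusted p = 0.0186), on each TPM scale (0.0132 to 0.0185) and without Abcc4-/- replicate 1 (0.0161), over a range of 0.0132 to 0.205 in all alternatives. In TPM the libraries stood at 33.9, 34.3 and 47.0 in WT and at 24.8, 18.0 and 19.1 in Abcc4-/-.

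Insig2 (ENSMUSG00000003721.14, chromosome 1, 121304353 to 121332589, minus strand) does the same work and is known to be less dependent on SREBP. It rose from 12.8, 12.4 and 11.9 CPM in WT to 16.1, 14.7 and 14.8 CPM in Abcc4-/- (1.23-fold, SE 0.07 on the log2 scale, adjusted p = 0.0114), without overlap. In TPM the direction was not kept: Insig2 stood at 13.2, 11.6 and 11.6 in WT and at 11.3, 12.02 and 10.5 in Abcc4-/- (log2 fold change -0.10 on log2(TPM + 1), adjusted p = 0.439, and -0.01 after centring, 0.966). In TPM, which allows genes to be compared, Insig1 was 2.58, 2.96 and 4.04 times Insig2 in WT and 2.20, 1.496 and 1.81 times in Abcc4-/-, a ratio picked after its values were seen and not tested.

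**Figure D3:**
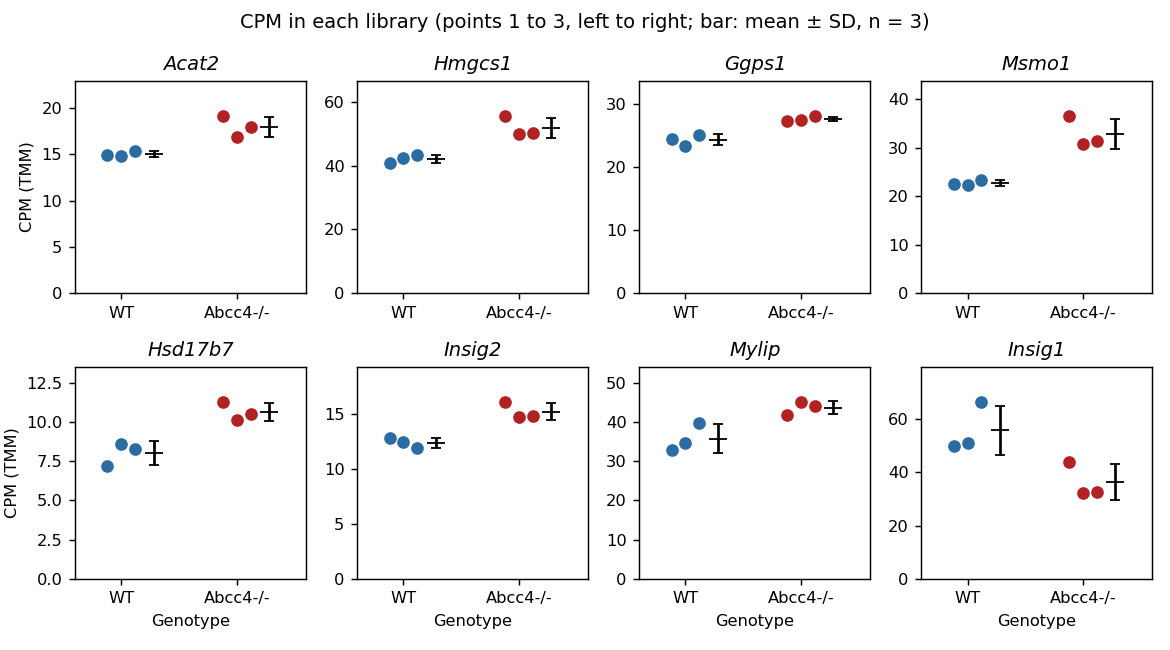
TMM-scaled CPM of the 7 called genes and Insig1 in each library, with the mean ± SD of 3 libraries per genotype. The 7 called genes are higher in all 3 Abcc4-/- libraries, and Insig1 is lower in all 3, at 32.3 to 44.1 against 49.98 to 66.5 CPM.

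The gap between the scales was followed through the length that counts and TPM imply. For 1 gene, counts divided by TPM follow the mean length of its transcripts as RSEM apportioned them, and each library was set to its median over the 11524 genes with at least 2 TPM in every library. Insig2 had 94.4%, 103% and 103% of the WT mean length in WT and 128%, 112% and 133% in Abcc4-/-, higher than 99.8% of these genes. Insig1 had 99.8% to 100% in WT and 112% to 116% in Abcc4-/-, Abca1 96.0% to 106% and 110% to 114%, and Stard4 92.9% to 106% and 109% to 112%. The shifts of these 4 genes lay above those of 98.3% to 99.8% of genes and were the largest upward shifts of the 29. Their values did not overlap between genotypes, which also held for Idi1, Cyp51 and Srebf2 (Abcc4-/- above). Mvd, Sqle, Nsdhl and Mylip did not overlap either, with Abcc4-/- below. The share of all genes without overlap in this length was not computed. For Msmo1, Hmgcs1 and Mylip the implied length stayed within 97.6% to 101% of the WT mean in each library. Insig2 has 14 annotated transcripts, with coding ones of 204 to 2697 bases, and Insig1 has 2, of which 1 is coding. Which transcripts differed was not measured.

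**Figure D4:**
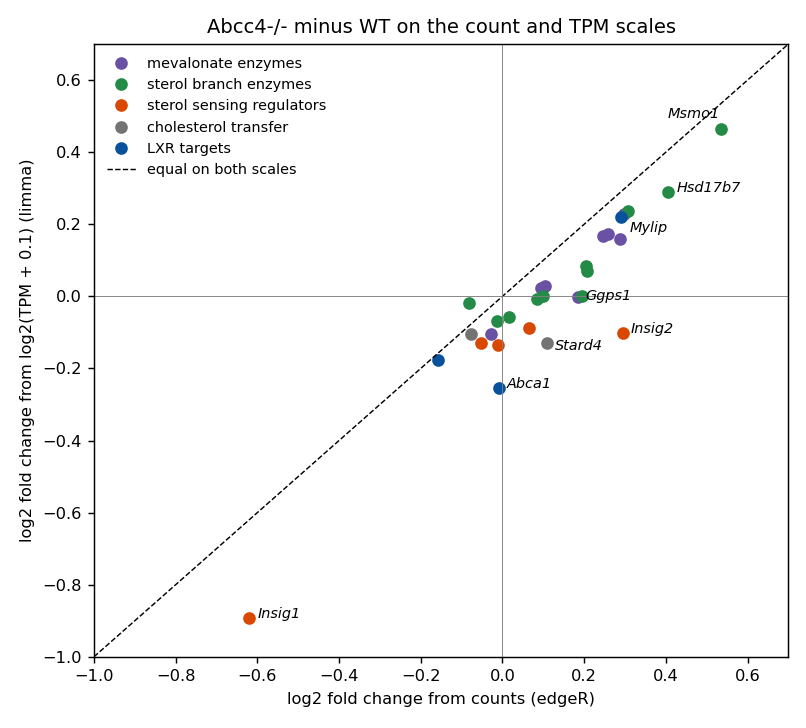
Log2 fold change (Abcc4-/- minus WT) from counts by edgeR on the x axis and from log2(TPM + 0.1) by limma on the y axis, coloured by role; the dashed line marks equal values. Insig2, Stard4, Abca1 and Insig1 lie farthest below the line, and Insig2 is at 0.29 on counts and -0.10 on TPM.

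Of the 2 cholesterol transfer genes neither was called. Stard4, which carries sterol between membranes and is itself SREBP-responsive, stood at 36.1, 36.8 and 39.5 CPM in WT and at 42.4, 39.0 and 39.8 CPM in Abcc4-/- (log2 fold change 0.11, adjusted p = 0.224). Npc1, which lets cholesterol from taken-up lipoprotein leave the lysosome, had -0.08 (adjusted p = 0.339), with 79.8, 75.1 and 80.0 CPM and 71.2, 75.5 and 76.1 CPM. The groups overlapped for both.

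The 3 LXR targets did not move as a group. Mylip (ENSMUSG00000038175.10, chromosome 13, 45389742 to 45412022, plus strand), the ubiquitin ligase that marks lipoprotein receptors for breakdown, stood at 32.8, 34.6 and 39.9 CPM in WT and at 41.9, 45.1 and 44.1 CPM in Abcc4-/-. It rose 1.22-fold without overlap (SE 0.07 on the log2 scale, adjusted p = 0.0158), and lost its call without WT replicate 1 or 2 or Abcc4-/- replicate 2 (adjusted p = 0.0553 to 0.0673) and on the uncentred TPM scales (0.168 to 0.175). Abca1, which loads cholesterol onto lipid-poor apolipoprotein, stood at 14.8, 16.1 and 18.7 CPM and at 16.0, 15.9 and 17.3 CPM (log2 fold change -0.01, SE 0.08, adjusted p = 0.961). Abcg1, which loads it onto HDL particles, stood at 54.3, 51.6 and 56.3 CPM and at 46.0, 52.7 and 46.8 CPM (-0.16, SE 0.06, adjusted p = 0.110). For these pumps the groups overlapped, and the mean of Abcg1 was lower in Abcc4-/- where Mylip rose.

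Set against each other, the enzymes and the LXR targets gave no clear separation. The mean log2 CPM of the 3 LXR targets was 4.90, 4.94 and 5.12 in WT and 4.97, 5.07 and 5.04 in Abcc4-/-. The enzyme mean minus this mean was -0.66, -0.69 and -0.88 in WT and -0.46, -0.71 and -0.66 in Abcc4-/-, so the groups overlapped. The genotypes' means differed by 0.13, which became 0.06 without Abcc4-/- replicate 1 and 0.07 without WT replicate 3. Leaving out WT replicate 1 or Abcc4-/- replicate 2, at the opposite ends of their groups, moves the difference up instead. No test was made of this score, since its genes were chosen with results of these data known.

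In WT the 29 genes spanned 2.56 to 64.7 TPM. Fdps (64.7 ± 3.99 TPM; SD, n = 3) and Srebf2 (64.2 ± 3.10) were the highest and overlapped, and Ebp and Srebf1 came next at 51.3 ± 1.71 and 48.4 ± 1.42. The enzymes from Acat2 to Sqle lay between 8.50 and 10.4 TPM, many of them not apart from their neighbours. Lss (3.57 ± 0.426), Hsd17b7 (2.84 ± 0.142) and Abca1 (2.56 ± 0.250) were the lowest, the last pair overlapping. The high expression of Srebf2 and Fdps and the low expression of Abca1 were found in both genotypes.

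Further lists of genes around the pathway are read against the same background of 8.61% higher and 8.68% lower. In a list of 9 LXR receptors and further LXR targets, 1 rose and 4 fell (11.1% and 44.4%, median log2 fold change -0.16). Arl4c, a small GTPase gene known as an LXR target, fell from 147 ± 13.2 to 63.2 ± 2.85 CPM (2.33-fold, adjusted p = 2.32e-06), and Nr1h2, the gene of the ubiquitous LXR beta, fell from 115 ± 5.54 to 95.3 ± 5.85 CPM (1.21-fold, adjusted p = 0.00889). Lpcat3, a phospholipid-remodelling LXR target, rose 1.21-fold (35.9 ± 1.72 to 43.4 ± 1.76 CPM, adjusted p = 0.00677) and lost its call on the uncentred TPM scales (up to 0.251). The others that fell, named after their values were seen, were the receptor partner Rxra (48.6 ± 2.46 to 42.1 ± 1.299 CPM, adjusted p = 0.022) and the phospholipid transfer gene Pltp (24.4 ± 1.37 to 19.4 ± 2.73 CPM, 0.0408). Of the 11 genes of SREBP processing and sterol-dependent degradation, 0 were called by edgeR (median log2 fold change 0.07). In that test 1 had an unadjusted p below 0.05, where 30.9% of all genes passed. The groups did not overlap for 4 (36.4%, against 36.8% of all genes). With so few genes, these counts are no result about these genes. Among them, the ubiquitin ligase gene Syvn1 had a log2 fold change of 0.12 (edgeR, adjusted p = 0.180) and the protease gene Mbtps2 of -0.11 (0.185).

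Of the 13 fatty acid synthesis genes tested, 2 rose and 1 fell (15.4% and 7.69%, median log2 fold change 0.05), with few genes behind each share. Gpam, the acyltransferase that starts glycerolipid synthesis, rose 1.46-fold (31.4 ± 3.87 to 46.0 ± 3.75 CPM, adjusted p = 0.00449). Scd2, a fatty acid desaturase, rose 1.15-fold (adjusted p = 0.0316) and Lpin1, a phosphatidate phosphatase, fell 1.23-fold (adjusted p = 0.0227). Both lost their calls without WT replicate 2 or Abcc4-/- replicate 1, Scd2 also without WT replicate 1 or Abcc4-/- replicate 2, and Lpin1 without WT replicate 3 or Abcc4-/- replicate 3 (up to 0.331 and 0.0987 over all alternatives).

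Of the 13 isoprenoid-using genes, 3 rose (23.1%) and 0 fell, with a median of 0.05 on the log2 scale: Zmpste24, the protease that trims prenylated proteins (1.40-fold, 93.1 ± 6.55 to 131 ± 6.33 CPM, adjusted p = 0.000363), the farnesyltransferase subunit Fnta (1.19-fold, adjusted p = 0.00949) and the dolichol synthesis gene Dhdds (1.11-fold, adjusted p = 0.0452). Fnta lost its call without Abcc4-/- replicate 2 (0.0501) and Dhdds without any of the 6 libraries (up to 0.459 over all alternatives). Of 19 genes of cholesterol transport, storage and oxysterols, 2 rose and 2 fell (10.5% each, median log2 fold change -0.03), which is near the background and no result about the list. The sterol-binding protein gene Osbpl2 rose 1.33-fold (47.7 ± 3.83 to 63.3 ± 1.31 CPM, adjusted p = 0.00113), and Cyp27a1, which makes the LXR ligand 27-hydroxycholesterol, fell 1.36-fold (50.5 ± 2.31 to 37.0 ± 3.61 CPM, adjusted p = 0.00158). Osbpl9 rose 1.13-fold (adjusted p = 0.0265); leaving out WT replicate 3 alone kept its call (adjusted p up to 0.345 over all alternatives). The other that fell, Hsd3b7 of bile acid synthesis, named after its values were seen, went from 46.8 ± 2.69 to 41.1 ± 1.90 CPM (adjusted p = 0.0479).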

How the data were processed

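RNA-seq libraries of 6 samples were compared, 3 WT and 3 Abcc4-/-, grouped by the genotype label with replicate numbers from the titles. Per the submitters' processing notes, STAR 2.7, RSEM 1.3.1 and mm10 were used. No source used here names the annotation release. The authors deposited expected counts per gene, not normalized, and TPM, scaled per library; the library kit keeps strand, per the labels' protocols. The 92 spike-in entries held 0 counts and were left out.

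Expected counts were rounded. The genotype test was that of edgeR 4.0.16 under R 4.3.3, with TMM scaling, the default filter on low counts, robust quasi-likelihood fit of genotype, and adjustment over the 16493 genes kept. The fit was tested on simulated data. Log2 CPM used a prior count of 2. SE came from the fold change and its F statistic. TPM values were tested with limma 3.58.1 on log2(TPM + 1) and log2(TPM + 0.1), which understate changes of low genes. Other alternatives were DESeq2 1.42.0, limma-voom, other scalings and filters, a replicate block and each library left out; thinning to the smallest library and centred TPM were added after the data were seen. Gene positions came from GENCODE for GRCm38, where 28 of the 29 identifiers matched with their version. Copies were sought by megablast among transcripts (at least 90% identity over 500 bases).

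The 29 genes, lists and markers were chosen with earlier results of these data known. Named were all 29, Abcc4 and, of each further list, the 3 genes with the smallest adjusted p, of which 1 is not reported here. The smallest two-sided p that 3 against 3 allows in a permutation test is 0.1, so none was used.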

Additional observations from a re-analysis of the deposited data

How the results depend on the processing

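Of the 29 genes' fold changes under 18 alternatives, 455 kept their direction and side of the threshold. With the direction kept, 20 lost a call and 18 gained one, and 29 turned direction. Among those that turned were Insig2 on each TPM scale and Ggps1 on both uncentred TPM scales, whose calls were lost there as well. The count of 7 higher became 11 with no filter on low counts, 1 on log2(TPM + 1), 1 on log2(TPM + 0.1) and 4 to 8 with each library left out. Over all genes, higher calls were 1420 of 16493 in the main test and 1681 of 26780 with no filter. They were 599 and 602 of 16493 on these TPM scales and 823 to 1247 with each library left out. The count of 0 lower became 1 (Insig1) with DESeq2, on log2(TPM + 1), on log2(TPM + 0.1) and on centred log2(TPM + 1), and 0 to 1 with each library left out. Over all 16493 genes, lower calls were 1432 in the main test, 1488 with DESeq2, and 1512, 1552 and 856 on those TPM scales. With each library left out they were 897 to 1265. The count over all genes, 2852, was 1760 to 2415 with each library left out, lowest without Abcc4-/- replicate 2 and 1821 without Abcc4-/- replicate 1. The cause was not tested.

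Directions that turned, as log2 fold changes, were on log2(TPM + 1) Cyp51 -0.00044, Dhcr7 -0.0080, Ggps1 -0.00091, Insig2 -0.096, Nsdhl -0.053, Srebf1 -0.086 and Stard4 -0.12, and on log2(TPM + 0.1) Cyp51 -0.00048, Dhcr7 -0.0085, Ggps1 -0.00096, Insig2 -0.10, Nsdhl -0.058, Srebf1 -0.088 and Stard4 -0.13. After centring they were Insig2 -0.0076, Lss 0.073, Stard4 -0.033 and Tm7sf2 0.026, and after thinning Abca1 0.0035. With each library left out, Abca1 ranged from -0.083 to 0.094, Mvd from -0.085 to 0.029, Nsdhl from -0.057 to 0.062, Srebf2 from -0.036 to 0.014 and Tm7sf2 from -0.033 to 0.016. Of these genes, Ggps1 and Insig2 had been called on counts.

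Deviations from the group means were no more alike between libraries of the same replicate number than between the others. They correlated at -0.05, -0.03 and -0.01 between libraries of the same number, and at -0.06 to 0.08 between the others. With the replicate block, 9 of the 29 genes were higher and 0 lower (Fdps and Fdft1 added, adjusted p = 0.0157 and 0.0365), and 3157 genes were called in all. Of all 16493 genes, 1528 were higher and 1629 lower.

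Each of the 29 genes had at least 392 counts in each library. Every Abcc4-/- library was deeper than every WT library, so other differences that go with depth cannot be told apart from genotype. Thinned to the smallest library total, 9 of the 29 were higher, against 1311 of all 16138 genes tested there, and the 7 calls remained.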
